A study of Mus musculus with 17 samples.

Results

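Lungs of mice carrying human PPARα in place of the mouse receptor were compared with lungs of wild-type mice, all of them after drinking water with perfluorooctanoic acid (PFOA). Of 31245 genes in the deposited table, 26932 had a total of 20 or more over all libraries, and the 26062 of these on autosomes were the genes compared. The remaining 4129 autosomal genes were under that total, and 870 genes on other chromosomes were not reported. The comparison rested on 3 humanized libraries (animals 57, 80 and 139, called KI) and 3 wild-type libraries (animals 50, 56 and 65, called WT), out of 17 libraries in the series. The study asked which effects of chronic PFOA exposure on lung gene expression involve PPARα, and the other 11 libraries held PPARα null (KO) lungs and vehicle controls.

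KI mice had the label genotype hPPARa KI and WT mice the label wildtype. Both groups received Hi-PFOA, which was 6.2 µg/mL PFOA in water with 0.5% sucrose, for 14 weeks from 6 weeks of age, together with a custom diet modelled on what American adults eat. The vehicle groups received the same diet and the same sucrose water. WT mice were purchased Sv/129 animals. KI and KO mice came from breeding pairs of mouse PPARα null and human PPARα heterozygous animals. A KI to WT difference therefore cannot be told apart from a difference in breeding source or in genome regions carried along with the alleles. KI 57 was male and KI 80 and 139 were female, whereas WT 50 was female and WT 56 and 65 were male, so sex was unequal between the groups. The labels gave 1 animal per library.

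PPARα is a nuclear receptor that pairs with RXR, binds fatty acids and related ligands, and switches on genes of fatty acid uptake and oxidation. PFOA is a long-lived fluorinated surfactant that resembles a fatty acid and activates PPARα, and the mouse and human receptors are known to differ in their response to such ligands. The lung holds epithelial, endothelial, stromal and immune cells, and in bulk RNA fewer cells of a type and less RNA per cell cannot be told apart.

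Levels are given in CPM, the count of a gene scaled to a common library total. Differences are log2 fold changes of KI minus WT with their standard error, from the edgeR quasi-likelihood test over all 17 libraries, with Benjamini-Hochberg adjusted p-values. A gene was called when its adjusted p was under 0.2 and its fold change over 2. The 6 libraries held 6655398 to 9027308 counts, of which 74.4% to 80.4% lay in protein-coding genes. A count of 3 in a single library corresponded to 0.343 to 0.439 CPM. No pair of replicates was close to counting noise, with a chi-square per degree of freedom of 6.7 to 17.6.

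The targeted gene was examined first. Reads were aligned to the mouse genome alone, so the values for Ppara (ENSMUSG00000022383, chr15:85734983-85802820, mm10) count reads that match the mouse gene, whether they came from a mouse or a human transcript. Ppara stood at 20.4, 14.9 and 9.08 CPM in KI 57, 80 and 139, and at 5.07, 4.39 and 6.94 CPM in WT 50, 56 and 65. Every KI library was above every WT library. The log2 fold change was 1.44 ± 0.26, with an edgeR adjusted p of 0.0185. On vehicle, the 3 KI libraries held 15.3, 15.3 and 12.7 CPM against 6.13 and 7.2 CPM in the 2 WT libraries. The 3 libraries labelled KO on PFOA held 10.1, 11.3 and 8.82 CPM, so the gene-level count did not separate a null from an intact locus and served as no check of the genotype labels.

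Between KI and WT lungs on PFOA, 142 of 26062 genes were called, which is 0.545% of those tested. Of these, 91 were higher in KI (0.349%) and 51 were lower (0.196%). At an adjusted p under 0.05 with no limit on fold, 70 genes passed (0.269%), 41 of them higher and 29 lower. In 139 of the 142 called genes the KI and WT libraries did not overlap, the exceptions being Gbp4, Tgtp2 and Zfp949, and the libraries did not overlap in 3639 of all tested genes (14%). Protein-coding genes made up 87 of the calls, of which 59 were higher and 28 lower, 25 calls were pseudogenes and 30 were of other types. A gene on the opposite strand overlapped 54 of the called genes, and since the counting was not stated to use strand, reads of such pairs may be shared. Neither such overlaps nor gene types were counted over all tested genes, so these numbers have no background beside them.

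**Figure D1:**
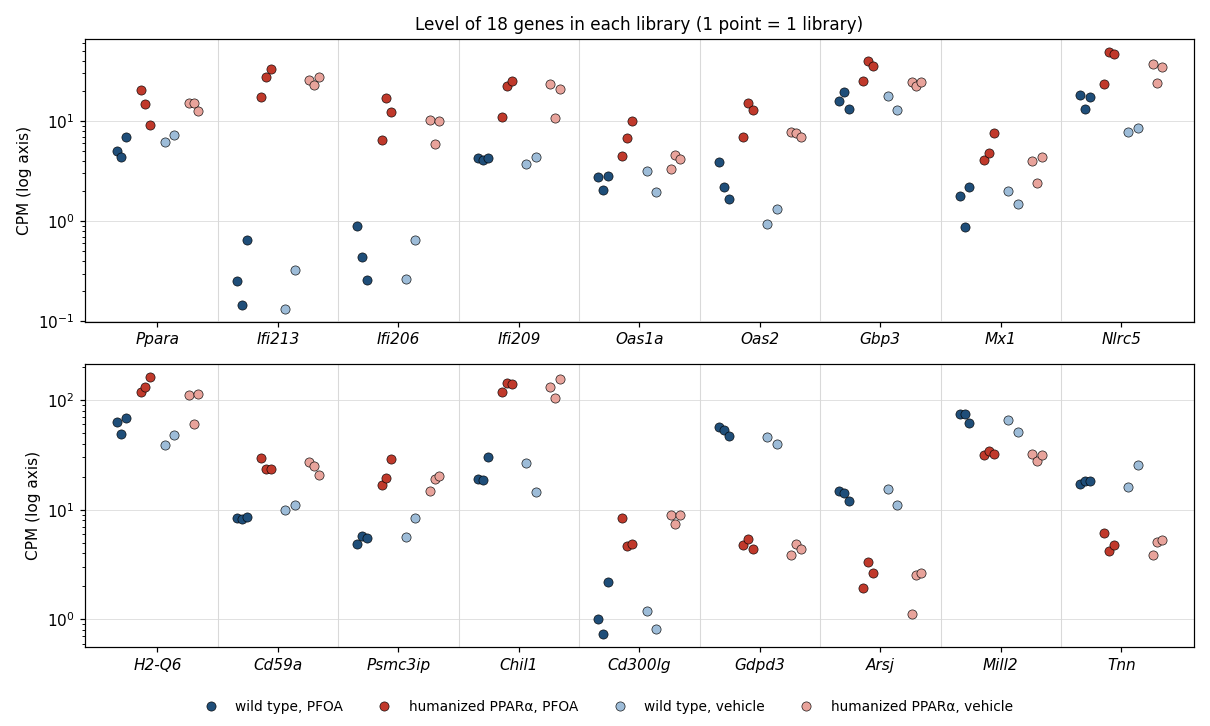
Level of 18 named genes in CPM (log axis) for each library, with 3 WT and 3 KI libraries on PFOA (dark points) and 2 WT and 3 KI libraries on vehicle (pale points), 1 point per library. On PFOA every KI point lies above every WT point for the first 14 genes and below every WT point for Gdpd3, Arsj, Mill2 and Tnn.

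Genes of the Ifi200 family on chromosome 1 were prominent among the calls, and their proteins bind DNA in the nucleus or cytoplasm and are induced by interferon. Ifi213 (ENSMUSG00000073491, chr1:173566283-173599275) stood at 17.2, 27.5 and 33.3 CPM in the KI libraries and at 0.253, 0.146 and 0.643 CPM in the WT libraries. Few reads were counted for it in WT lungs, with 8 counts over 3 libraries against 603 in KI. The difference was 6.13 ± 0.39 on the log2 scale, with an edgeR adjusted p of 4.21e-08.

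Ifi206 (ENSMUSG00000037849) showed a similar contrast, with 6.51, 17 and 12.4 CPM in KI and 0.887, 0.439 and 0.257 CPM in WT. Its log2 fold change was 4.44 ± 0.50 with an edgeR adjusted p of 7.59e-05. Ifi209 (ENSMUSG00000043263) was expressed in both groups, at 10.8, 22.4 and 25.2 CPM in KI and 4.31, 4.09 and 4.24 CPM in WT. Within KI the male library 57 was the lowest of the 3 for each of these genes. On vehicle the male KI 102 was the highest KI library for Ifi206 and Ifi209 and lay between the other KI libraries for Ifi213. The difference for Ifi209 was 2.2 ± 0.38 with an edgeR adjusted p of 0.0138. Ifi203-ps, annotated as a pseudogene, was higher by 1.80 ± 0.45 (edgeR adjusted p of 0.141). It lost its call under 7 of the 31 alternatives that tested it, sex as a covariate among them.

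Ifi202b ran the other way. It held 2.03, 1.9 and 3.6 CPM in WT, and a single count over the 3 KI libraries against 57 in WT. The ratio of WT to KI was 60.0, with a 95% counting interval of 10.3 to 2411 that covers counting error only. It was called lower in KI with an edgeR adjusted p of 0.106. The call was lost with the second index number as a covariate and without any 1 of WT 50, 56 and 65 and KI 80 and 139, where the edgeR adjusted p reached 0.454. The family as a whole was chosen after its values were seen. Of its 12 tested members 4 were called higher and 1 lower, beside 0.349% higher and 0.196% lower over all tested genes. The median log2 fold change was 0.89 against 0.01 over all tested genes, and 11 members had a positive sign. These genes are near copies of each other, so reads may have been shared among them. Reads may also have been lost against the reference, which is not the genome of these mice.

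The promoters of interferon-induced genes were read because several called genes belong to that group. Sequences came from RefSeq on GRCm38.p6, the reference genome and not the genome of these mice, and cover 250 bases before to 50 after each start. The motif searched was GAAANNGAAA on both strands, the core of the interferon-stimulated response element bound by IRF factors and STAT complexes. It occurred in 3.44% of 32851 promoters. Of 14433 tested genes matched by symbol, 556 held it (3.85%), while 10 of the 54 matched genes called higher held it (18.5%) and 1 of the 26 matched genes called lower did (3.8%). The 10 were Cd59a, Gbp3, Gm12586, Gzma, Ifi206, Ifi213, Igtp, Oas1a, Tgtp2 and Zmynd12, and the 1 called lower was Gbp2b. The 100 bases before the start are printed for the called Ifi200 genes Ifi213, Ifi206 and Ifi209 and for 3 other called genes with a match, in gene orientation with each match in capitals.
Ifi213, chr1:173599273-173599372, strand -: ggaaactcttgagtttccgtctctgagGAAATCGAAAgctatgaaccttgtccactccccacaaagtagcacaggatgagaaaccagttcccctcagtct
Ifi206, chr1:173491319-173491418, strand -: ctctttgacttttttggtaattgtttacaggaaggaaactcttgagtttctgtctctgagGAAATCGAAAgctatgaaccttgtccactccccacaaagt
Ifi209, chr1:173630759-173630858, strand +: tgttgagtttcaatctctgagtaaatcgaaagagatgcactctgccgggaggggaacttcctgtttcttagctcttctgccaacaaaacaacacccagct
Gbp3, chr3:142559944-142560043, strand +: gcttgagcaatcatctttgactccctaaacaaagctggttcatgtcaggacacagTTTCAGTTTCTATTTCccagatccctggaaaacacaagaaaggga
Oas1a, chr5:120907526-120907625, strand -: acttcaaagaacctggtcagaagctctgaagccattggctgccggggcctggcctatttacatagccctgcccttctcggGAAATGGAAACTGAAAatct
Igtp, chr11:58199456-58199555, strand +: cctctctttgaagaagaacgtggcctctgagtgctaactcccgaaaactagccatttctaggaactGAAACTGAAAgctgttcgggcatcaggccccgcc
Ifi213 and Ifi206 shared a run of 49 bases that held their 1 match, 73 and 40 bases before the start. The Ifi209 promoter held none. In Gbp3 and Oas1a overlapping matches lay 45 and 20 bases before the start, and in Igtp the match lay 34 bases before it. A direct repeat AGGTCANAGGTCA, the form of site that PPAR and RXR bind, was found in 0.04% of promoters and in none of the matched called genes.

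Across 26 interferon response genes, 4 were called higher in KI and none was called lower, beside 0.349% higher and 0.196% lower over all tested genes. Oas1a and Oas2 make the signal that activates RNase L against viral RNA, and Gbp3 is a guanylate-binding protein that acts on intracellular pathogens. Mx1 is the gene of an antiviral GTPase, annotated here as a polymorphic pseudogene and counted among the called pseudogenes. Oas2 stood at 6.85, 15.2 and 13 CPM in KI and 3.93, 2.19 and 1.67 CPM in WT, a difference of 2.15 ± 0.47 (edgeR adjusted p of 0.0734). Oas1a stood at 4.45, 6.81 and 10.1 CPM against 2.79, 2.05 and 2.83 CPM, a difference of 1.46 ± 0.31 (edgeR adjusted p of 0.0619). Mx1 was higher by 1.73 ± 0.40 (edgeR adjusted p of 0.102) and Gbp3 by 1.05 ± 0.23 (edgeR adjusted p of 0.0778). Gbp3 lost its call with sex as a covariate. In all 4 genes the KI libraries lay above the WT libraries. The KO minus WT log2 fold changes on PFOA, against the same WT libraries, were 2.93 for Oas2 and 1.88 for Oas1a. They were 2.11 for Mx1 and 1.11 for Gbp3.

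The list leaned the same way beyond its calls. Of its 26 members 25 had a positive sign and 16 had an unadjusted p under 0.05 in edgeR, and the median log2 fold change was 0.93 against 0.01 over all tested genes. Cxcl9, Oasl1 and Oas3 had larger fold changes than Oas2, at 2.33, 2.31 and 2.17, and did not pass the test. Ifit2 had a log2 fold change of 0.00. The summed level of the list was 388 CPM in KI 57, 597 in KI 80 and 607 in KI 139, against 345, 362 and 332 CPM in WT 50, 56 and 65. KI 57 thus sat just above the WT range and KI 80 and 139 well above it. KI 57 was the only male of the 3, so sex cannot be told apart from the animal here. On vehicle the male KI 102 was the highest KI library for Oas2 and the lowest for Oas1a. The count of called members depended on single libraries, being 0 without KI 139, 7 without KI 57, 1 without WT 50, 1 without WT 56, 2 without KI 80 and 3 without WT 65. It was 3 with sex as a covariate, 2 with the second index number as a covariate and 2 in the fit of the 6 libraries with sex. The median stayed between 0.79 and 1.14 over those settings and the others tried. The lean was also present on vehicle, where the median of the list was 0.64. Its summed level there was 361 to 497 CPM in KI and 265 to 337 CPM in WT.

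Further interferon-inducible GTPases were called, chosen here after their values were seen. Gbp6 stood at 14.7, 48.1 and 30.2 CPM in KI against 10.6, 10.1 and 11.4 CPM in WT (1.53 ± 0.30, edgeR adjusted p of 0.0353). Iigp1, an immunity-related GTPase that attacks parasite vacuoles, stood at 26, 74.4 and 43.7 CPM against 12.9, 18 and 9.12 CPM (1.85 ± 0.40, edgeR adjusted p of 0.0619). Gbp4 was called at 1.91 ± 0.38 although its libraries overlapped, since KI 57 held 23.2 CPM beside 131 and 90.7 CPM in the other KI libraries and 18.6 to 23.3 CPM in WT. Igtp and Tgtp2 were also called, at 1.30 ± 0.32 and 1.45 ± 0.38, with edgeR adjusted p-values of 0.131 and 0.189. Their calls were lost under 8 and 20 of 32 alternatives, in both cases including sex as a covariate. In each of these 5 genes KI 57 was the lowest KI library and KI 80 the highest, and without KI 80 none of them kept its call. Of 11 tested Gbp genes 3 were called higher and 1 lower, with a median log2 fold change of 0.56. Of 6 immunity-related GTPase genes 3 were called higher and none lower. Over all tested genes 0.349% were called higher and 0.196% lower, and the median log2 fold change was 0.01. Both families were formed after these values were seen.

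The Gbp gene called lower was Gbp2b, with 0.571, 0 and 0.279 CPM in KI and 29.1, 42.0 and 31.0 CPM in WT (edgeR adjusted p of 0.113). Its level was also split within the other groups. The 3 KI libraries on vehicle held 36.0, 0.127 and 0.141 CPM, the 3 KO libraries on PFOA held 0.399, 42 and 22 CPM, and both WT vehicle libraries held 32.6 and 23.7 CPM. It was thus at the WT level in some animals from the KI and KO breeding and near 0 in others, and its call was lost on leaving out any 1 of the 6 libraries.

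Nlrc5, the transactivator of MHC class I genes and outside the antigen presentation list, stood at 23.6, 49.2 and 46.5 CPM in KI and 18.2, 13.3 and 17.2 CPM in WT, a difference of 1.29 ± 0.23 (edgeR adjusted p of 0.0192). H2-Q6, a non-classical class I gene on chromosome 17, stood at 119, 132 and 162 CPM against 63.2, 48.5 and 68.5 CPM, a difference of 1.19 ± 0.25 (edgeR adjusted p of 0.0485). H2-T22 and H2-Q4 differed by 0.98 ± 0.18 and 0.88 ± 0.18, with edgeR adjusted p-values of 0.0184 and 0.0447, and missed the call only through the fold limit. Tap1, which carries peptides into the endoplasmic reticulum, differed by 0.92 ± 0.22 (edgeR adjusted p of 0.115) and was likewise under the fold limit. Mill2, an MHC class I-like gene outside the list and on chromosome 7, was lower in KI, at 31.4, 33.9 and 31.9 CPM against 74.0, 75.1 and 62.2 CPM (-1.12 ± 0.14, edgeR adjusted p of 0.000245).

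H2-Q6 was the 1 called member of the 23 listed antigen presentation genes, beside 0.349% called higher over all tested genes. All 23 had a positive sign, 13 had an unadjusted p under 0.05 in edgeR and 6 had an adjusted p under 0.2. The median log2 fold change was 0.63 on PFOA and 0.74 on vehicle. The summed level was 3637, 4583 and 4018 CPM in KI 57, 80 and 139 and 2765, 2670 and 2765 CPM in WT 50, 56 and 65. The groups were apart on this sum, and the WT libraries lay closer together than the KI libraries. H2-Q and H2-T genes differ between mouse strains and resemble each other, so reads may have been shared or lost against the reference. Without KI 139 no member was called, and without KI 57 there were 6.

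**Figure D2:**
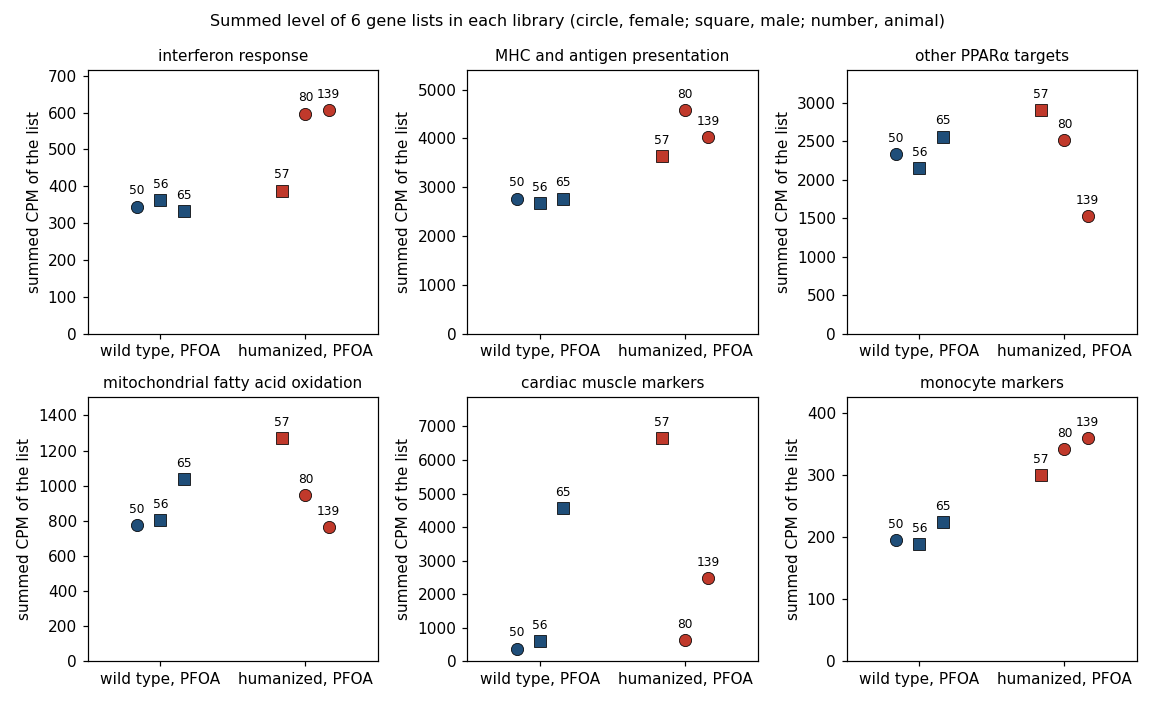
Summed CPM of 6 gene lists in each of the 6 PFOA libraries, with circles for females, squares for males and the animal number beside each point. The interferon, MHC and monocyte sums are higher in every KI library than in any WT library, while KI 57 and WT 65 are the highest of their groups for cardiac muscle markers and mitochondrial fatty acid oxidation, and KI 139 is the lowest of all 6 for the other PPARα targets. Without its member Chil1 the monocyte sum overlaps between the groups, at 181 to 220 CPM in KI and 170 to 194 CPM in WT.

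Other protein-coding genes called higher had roles outside the interferon and antigen presentation lists. Cd59a, an inhibitor of the complement membrane attack complex, stood at 29.8, 23.6 and 23.5 CPM in KI and 8.36, 8.19 and 8.61 CPM in WT (1.61 ± 0.19, edgeR adjusted p of 0.000178). Psmc3ip, which acts in homologous recombination, stood at 16.7, 19.3 and 29.1 CPM against 4.82, 5.7 and 5.53 CPM (2.01 ± 0.25, edgeR adjusted p of 0.000237). Every KI library was above every WT library in both genes, and KI 139 was the highest for Psmc3ip. Chil1, a secreted chitinase-like protein and a called member of the monocyte marker list, stood at 119, 143 and 140 CPM against 19.1, 18.7 and 30.1 CPM (2.56 ± 0.51, edgeR adjusted p of 0.0353). It lost its call under 3 of 32 alternatives, among them leaving out WT 50 or WT 56.

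Ero1lb, an oxidase of the endoplasmic reticulum that helps form disulfide bonds, was higher by 1.47 ± 0.24. Npl, which splits sialic acid, was higher by 2.46 ± 0.40 and Cd300lg, a receptor of capillary endothelium, by 2.17 ± 0.36. For Cd300lg the KI libraries held 8.45, 4.63 and 4.89 CPM and the WT libraries 1.01, 0.731 and 2.18 CPM. Ccdc28b, Ankrd35, Zfp619 and Mrps18b were higher by 1.54, 2.16, 1.27 and 1.20. The edgeR adjusted p-values of these 7 genes were 0.00177 to 0.0262. Rpl34 was higher by 1.95 ± 0.32 and Rpl35a lower by 1.73 ± 0.24 in KI. Both encode ribosomal proteins with many near-identical copies, so these 2 values are uncertain. Gzma, a protease of cytotoxic lymphocytes, was called at 1.30 ± 0.34 with an edgeR adjusted p of 0.192, close to the limit, and lost its call under 14 of 32 alternatives, sex as a covariate among them.

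Gdpd3 had the smallest p-value of all genes compared. The gene (ENSMUSG00000030703, chr7:126766334-126775650) encodes a lysophospholipase D, and it stood at 4.79, 5.4 and 4.33 CPM in KI and 57.2, 53.7 and 47.0 CPM in WT. Its log2 fold change was -3.44 ± 0.19 with an edgeR adjusted p of 1.35e-08, a level 10.8-fold lower in KI. On vehicle the KI libraries held 3.82, 4.84 and 4.36 CPM and the WT libraries 45.6 and 39.7 CPM, so the same contrast was present without PFOA.

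Arsj, an arylsulfatase, stood at 1.94, 3.34 and 2.66 CPM in KI against 14.7, 14.2 and 12.1 CPM in WT (-2.37 ± 0.29, edgeR adjusted p of 0.000225). Cntn1, a neural cell adhesion protein, stood at 7.99, 8.87 and 12.3 CPM against 35.7, 57.3 and 45.2 CPM (-2.25 ± 0.33, edgeR adjusted p of 0.00177). Tnn, an extracellular matrix protein of the tenascin family, stood at 6.16, 4.24 and 4.75 CPM against 17.2, 18.4 and 18.1 CPM (-1.82 ± 0.24, edgeR adjusted p of 0.000587). None of these genes had a KI library near the WT range. Zfp973 and D430041D05Rik were lower by 3.32 ± 0.34 and 2.31 ± 0.34.

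Bdkrb2, the bradykinin B2 receptor, stood at 4.22, 3.21 and 3.91 CPM in KI against 12.9, 12.1 and 9.64 CPM in WT (-1.61 ± 0.32, edgeR adjusted p of 0.0353). Alpk1, a kinase that senses bacterial sugar nucleotides, differed by -1.13 ± 0.23, and Dnase2a, the lysosomal DNase, by -1.06 ± 0.20. Syt17 and the kinase gene Stk32c differed by -1.43 ± 0.28 and -2.43 ± 0.47. The edgeR adjusted p-values of these 4 genes were 0.021 to 0.0374. Each of these 5 calls rested on single libraries, since Bdkrb2 lost its call without WT 50, Alpk1 without WT 50 or KI 80, Dnase2a without KI 80, Syt17 without KI 139 and Stk32c without WT 56. With sex as a covariate Dnase2a also lost its call, at a log2 fold change of -0.99. Atp1a4, a sodium pump subunit known from sperm, had 3 counts over the KI libraries and 178 over the WT libraries, a WT to KI ratio of 62.5 with a 95% counting interval of 21 to 306. The call of Atp1a4 was lost with DESeq2, on the same genes and with its default filters.

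A pair of immunoglobulin heavy chain genes was called lower in KI. Ighg1 stood at 0.114, 0.128 and 0.279 CPM in KI and at 73.8, 1.17 and 4.75 CPM in WT, and Ighg2c at 0.342, 0.514 and 1.26 CPM against 7.48, 8.92 and 5.01 CPM. WT 50 alone carried most of the Ighg1 signal. The edgeR adjusted p-values were 0.0353 and 0.189, and without WT 50 they were 0.445 and 0.535. These 2 genes were the called members of 17 B and plasma cell markers, whose median log2 fold change was -0.10 on PFOA and 2.15 on vehicle.

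Non-coding genes and pseudogenes gave the largest fold changes among the called genes. The long non-coding RNA Gm2682 stood at 13.1, 12.8 and 17.7 CPM in KI and had 3 counts over the WT libraries, a ratio of 108 with a 95% counting interval of 36.7 to 528. The 5S rRNA genes Gm24312 and n-R5s106 had the same values in every library, at 35.5, 26.2 and 26.8 CPM in KI and 0.253, 0 and 0 CPM in WT. The 5S rRNA genes n-R5s118 and n-R5s130 were also called, all of them with the same log2 fold change of 8.13. Such copies share their reads and cannot be told apart in these counts. The counts of called genes therefore hold this measurement repeatedly. In the other direction the small nuclear RNA Gm22513 held 0.419 to 0.514 CPM in KI and 43.1 to 155 CPM in WT. The processed pseudogene Rpl15-ps6 had no count in the 3 KI libraries and 479 in WT, at least 168-fold lower on a floor of 3 counts over the group. Rps15a-ps8 had 3 counts in KI and 149 in WT, a ratio of 52.3 with an interval of 17.5 to 256.

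Gpr137b and its unprocessed pseudogene Gpr137b-ps, on chromosome 13 and chosen after their values were seen, had fold changes of opposite sign. The pseudogene stood at 28.7, 35.5 and 36.5 CPM in KI against 6.08, 3.07 and 4.5 CPM in WT. Gpr137b stood at 35.3, 38.9 and 34.5 CPM against 76.2, 75.3 and 62.6 CPM. The log2 fold changes were 2.87 ± 0.31 and -0.98 ± 0.18, and since the copies are similar in sequence both values are uncertain.

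The same KI to WT contrast was measured on vehicle in libraries that share no animal with the PFOA contrast. It gave 227 called genes of those tested (0.871%), 149 higher and 78 lower in KI. Of the 142 genes called on PFOA, 133 had the same direction on vehicle (93.7%), compared with 55.6% of all tested genes. For 106 of them the direction was the same with an unadjusted p under 0.05 in edgeR, and 68 were called in both, which is 47.9% of the PFOA calls and 30% of the vehicle calls. The median difference of the 142 genes, taken in its PFOA direction, was 2.15 on PFOA and 1.71 on vehicle on the log2 scale. The genes were chosen for their difference on PFOA, so a larger median there follows from the choice. The vehicle contrast had only 2 WT libraries, 1 of which (122) had 65.3% of its counts in protein-coding genes. The same direction was seen for 138 of the 142 without WT vehicle 122 and for 129 without WT vehicle 107.

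Whether the KI to WT difference itself depended on PFOA was tested with an interaction term. No gene was called (0%), while 1201 of 26062 tested genes had an unadjusted p under 0.05 in edgeR, 25 of them among the 142. The 142 were chosen on the PFOA contrast, which is a term of this interaction. Small p-values among them therefore follow in part from the choice. DESeq2 called 1 gene, Bpifa1, named after its value was seen. The paper counts Bpifa1 among genes that passed its own WT comparison as artifacts of having few vehicle lungs. The WT vehicle libraries also enter this interaction. Genes called on PFOA with little difference on vehicle, such as Mrps18b (1.20 on PFOA, 0.29 on vehicle) and Pcp4l1 (1.14 and 0.20), are therefore not shown to depend on PFOA. The interaction was called for 318 genes without WT vehicle 107, when WT vehicle 122 alone stood for that group and was assumed to vary like the others.

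**Figure D3:**
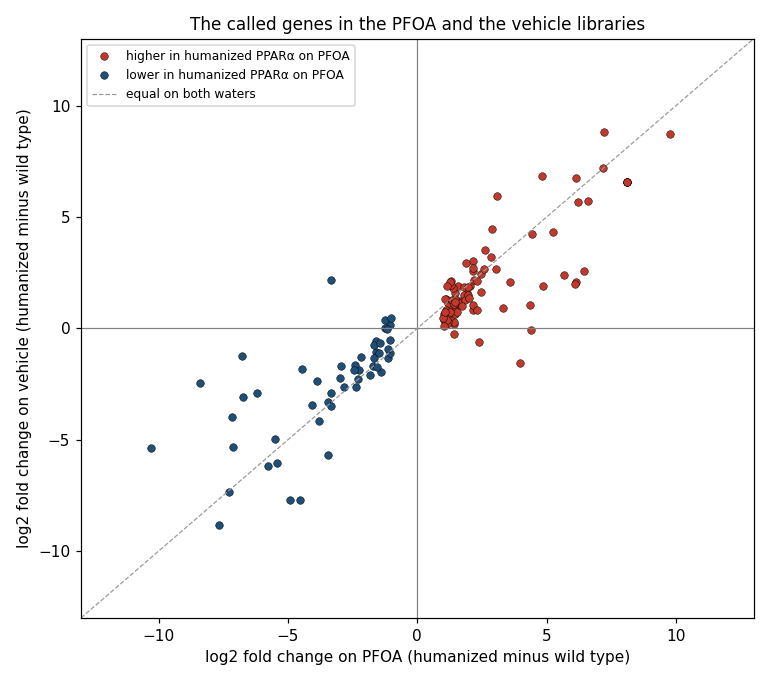
Log2 fold change of KI minus WT on PFOA (x axis) and on vehicle (y axis) for the 142 genes called on PFOA, 1 point per gene, red for the 91 higher and blue for the 51 lower genes. The x values chose the genes and the y values come from other animals, and 133 points lie in the quadrants where both have the same sign.

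The KO libraries on PFOA were set beside these values for the leading genes. They share the WT libraries with the KI comparison, so the second comparison is not independent of the first. Gdpd3 held 4.78, 5.0 and 3.44 CPM in the KO libraries, Ifi213 held 52.4, 31.3 and 34.8 CPM and Cd59a held 23.4, 26.1 and 28.4 CPM. The KO minus WT log2 fold changes were -3.56, 6.73 and 1.63, against -3.44, 6.13 and 1.61 for KI minus WT.

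PPARα is known to drive genes of fatty acid oxidation, and several lists of its targets were read. Of 20 mitochondrial fatty acid oxidation genes none was called, 19 had a positive sign and the median log2 fold change was 0.18. None of 15 tested peroxisomal oxidation genes and none of 26 tested genes among 33 other PPARα targets was called, with medians of 0.00 in both. With 0.545% of all tested genes called, a count of 0 in lists of this size is near the background and is no result about these genes. The 7 untested targets, among them Cyp4a10, Cyp4a14 and Fgf21, were not among the genes tested. Cpt1a, which admits fatty acids to mitochondria and is named after its values were seen, stood at 143, 151 and 79.5 CPM in KI and 137, 137 and 125 CPM in WT. Its libraries overlapped. Among 15 PPAR and RXR receptor and cofactor genes, Ppara was the only one called. The summed level of these 15 genes was 1457 to 1462 CPM in KI and 1498 to 1543 CPM in WT, and the groups did not overlap.

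The KI libraries were unlike each other in these target genes. Pdk4, which restrains glucose oxidation, stood at 181, 74.1 and 6.29 CPM in KI 57, 80 and 139 and at 34.3, 23.1 and 90.3 CPM in WT. Angptl4, an inhibitor of lipoprotein lipase named after its values were seen, stood at 76.3, 66.7 and 9.22 CPM against 72.0, 60.2 and 75.2 CPM. KI 139 was the lowest of the 6 libraries in both genes, and in the summed level of the other targets, with 1528 CPM beside 2152 to 2905 CPM in the remaining 5.

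Acadl, Crat and Slc27a1, which act in fatty acid oxidation, acyl transfer and uptake, had log2 fold changes of 0.42, 0.44 and 0.73, with edgeR adjusted p-values of 0.998, 0.558 and 0.9. The summed level of the mitochondrial oxidation genes was 1273, 946 and 762 CPM in KI 57, 80 and 139 and 777, 805 and 1037 CPM in WT 50, 56 and 65. Cardiac muscle markers summed to 6665, 631 and 2482 CPM in the same KI libraries and 383, 607 and 4572 CPM in the WT libraries. KI 57 and WT 65 were thus the highest of their groups in both sums, and the part of heart tissue in the oxidation genes was not tested.

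No member was called among 18 fatty acid synthesis genes (median log2 fold change 0.14), 20 cholesterol synthesis and LXR target genes (0.21) or 26 xenobiotic metabolism genes (0.03). Against the 0.545% of all tested genes that were called, a count of 0 is near the background in these lists and in those that follow. The fatty acid synthesis genes summed to 3437, 3445 and 3216 CPM in KI 57, 80 and 139 and to 2962, 2745 and 3089 CPM in WT 50, 56 and 65, every KI library being above every WT library. The xenobiotic metabolism genes summed to 5744, 4639 and 5076 CPM in KI and to 5900, 6211 and 6013 CPM in WT, every KI library being below every WT library. Neither sum was tested. Cyp51 of sterol synthesis differed by 0.62 ± 0.22 (edgeR adjusted p of 0.63) and Me1, which supplies NADPH, by 0.44 ± 0.20 (edgeR adjusted p of 0.902). Likewise none was called among 17 inflammasome and pyroptosis genes (median 0.19), 17 circadian clock genes (-0.08), 19 immediate early genes (-0.14) and 20 tested extracellular matrix genes (0.23). Col1a1, a fibrillar collagen, stood at 408, 335 and 345 CPM in KI and 204, 250 and 198 CPM in WT, a difference of 0.74 ± 0.17 with an edgeR adjusted p of 0.0866 and a fold under the limit. Of 24 genes that the study names, and chose on these samples, none was called and the median was 0.35. The chemokine gene Ccl5 was among them, at 6.85, 12.7 and 8.8 CPM against 4.44, 2.34 and 3.98 CPM (1.39 ± 0.42, edgeR adjusted p of 0.396), as was Lrg1 (0.66 ± 0.22, edgeR adjusted p of 0.537).

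**Figure D4:**
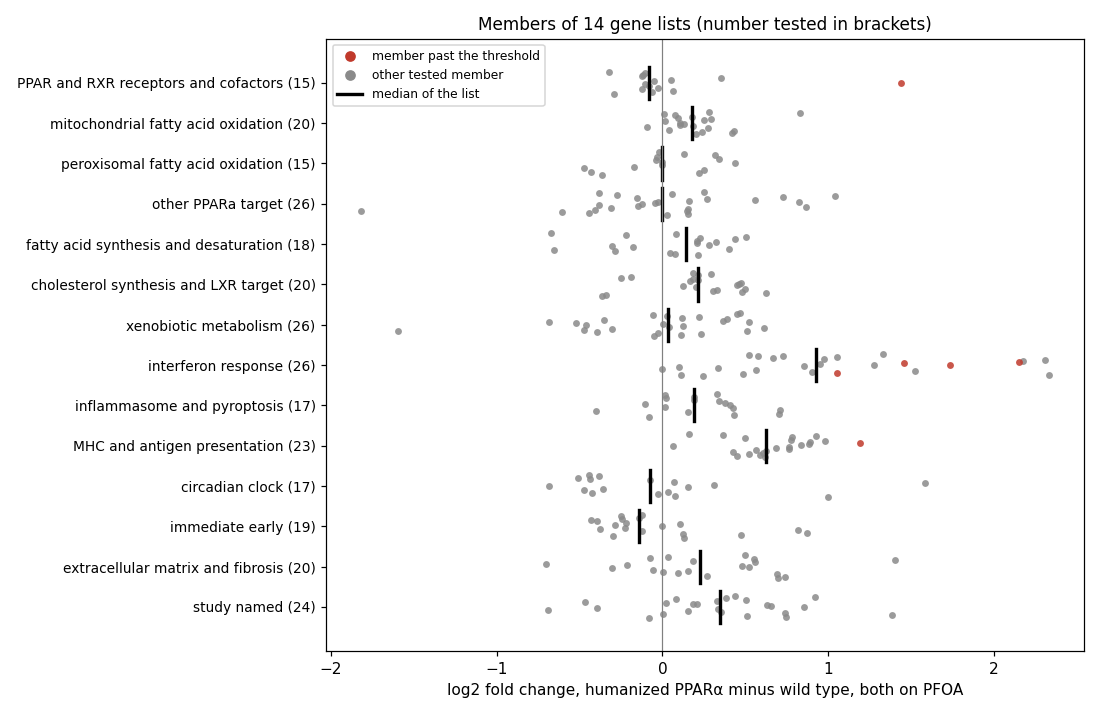
Log2 fold change of KI minus WT on PFOA for each tested member of 14 gene lists (points, red where called), with the median of each list as a black bar and the number tested in brackets. The interferon and MHC medians are 0.93 and 0.63, and no other list has a median above 0.35.

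Markers of lung cell types were read for the same libraries. Of 17 marker lists, 14 had no called member. The 8 alveolar type 1 markers all had a negative sign (median log2 fold change -0.24) and the 10 alveolar type 2 markers all had a positive sign (0.20), with no call in either list. Club and ciliated cell markers had medians of 0.60 and 0.72 on PFOA and -0.40 and -0.39 on vehicle, again with no call. Monocyte markers summed to 300 to 360 CPM in KI and 189 to 224 CPM in WT, with Chil1 as their only called member, and to 181 to 220 CPM and 170 to 194 CPM without it, so that the groups then overlapped. T and NK cell markers summed to 72.6 to 120 CPM in KI and 66.4 to 94.0 CPM in WT, with Gzma called among 19 tested. The part of immune cell numbers in the interferon and MHC differences was not tested.

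The remaining 10 lists, all without a call, had medians from -0.25 for mesothelial cells to 0.87 for mast cells and basophils. Their sums overlapped between the groups for endothelial cells, fibroblasts, smooth muscle, mesothelial cells, adipocytes, alveolar macrophages, neutrophils, cardiac muscle, mast cells and erythroid cells and platelets. Every tested member of every list had a count in at least 1 of the 6 libraries.

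The called genes were spread over 18 of 19 autosomes, from 0.066% of tested genes on chromosome 6 to 1.14% (13 of 1144) on chromosome 13, with no call among 794 on chromosome 19. Chromosomes 1 and 8 each had 1.03%. The 5 Mb window with most calls, chr1:169928648-173982745, held 9 called genes of 120 tested, beside 0.545% called over all tested genes. It was picked for its count of calls, so a high share there follows from the choice. The 9 were Pcp4l1, the lymphocyte receptor gene Slamf7, Ifi206, Ifi209, Ifi213 and Ifi203-ps, which were higher in KI, and Ccdc190, Atp1a4 and Ifi202b, which were lower. Ccdc190 stood at 0.571, 0 and 1.12 CPM in KI against 4.94, 5.26 and 8.61 CPM in WT (-3.47 ± 0.68, edgeR adjusted p of 0.0339). Slamf7 was called at 1.15 ± 0.30 with an edgeR adjusted p of 0.185, and lost its call under 14 of 32 alternatives. Within 5 Mb of Ppara itself none of 154 other tested genes was called, 5 had an unadjusted p under 0.05 (Septin3, Ttll12, Rabl2, Tef and 1700001L05Rik, named after their values were seen) and the smallest edgeR adjusted p was 0.479.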

How the data were processed

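Lung RNA of 17 mice was sequenced by the authors with a stranded total RNA kit for low input (SMARTer Stranded Total RNA-Seq v2 Pico). The deposited table holds the authors' estimated counts per gene, of which 31.3% are not whole numbers. The submitters' processing notes name STAR 2.6, Partek, DESeq2 3.5 and the mm10 build, and whether counting used strand is not given in the sources used here. The table has no gene with a total under 10, and 96.7% of its gene names were found once in GENCODE M21, 99.4% of these with the same start.

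Counts were rounded, and genes with a total of 20 or more were fitted with edgeR 4.0.16 (R 4.3.3), TMM factors, the quasi-likelihood test and 1 coefficient for each of 6 groups over all 17 libraries. P-values were adjusted over the 26932 genes fitted, and autosomal genes were reported. The residual degrees of freedom were 11 and the common biological coefficient of variation was 0.252. An exact permutation test of 3 against 3 libraries cannot go below p = 0.1, so none is printed. DESeq2 1.42.0 and other filters, scalings, covariates and sample sets were run as alternatives, and the fit was tested on simulated data. Counting intervals are exact 95% intervals, and intervals and floors cover counting error only.

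Members, 14 gene lists, 17 marker lists and tests were chosen with earlier results of these data known. Named genes were Ppara, the 15 protein-coding genes with the smallest p and no overlap of libraries in each direction, 3 of other types in each direction, called list members, the members with the smallest p in lists with fewer than 3 calls, and the called genes of the 5 Mb window with most calls. Some genes that the rule names are not reported here. Other genes are marked as chosen after their values were seen. P-values set each difference against a spread between libraries that was estimated over all 17 libraries in 6 groups.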

Additional observations from a re-analysis of the deposited data

How the results depend on the processing

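Of 54 called genes followed through 32 alternatives, 29 passed under every one, among them Ppara, Ifi213, Ifi206, Ifi209, Nlrc5, Cd59a, Gdpd3, Arsj, Mill2 and Tnn, and no followed gene reversed. The count of 142 was 93 with the second index number as a covariate, 87 when adjusted over protein-coding genes alone and 64 at an adjusted p under 0.05 with a fold over 2. It was 244 without both WT vehicle 122 and KO vehicle 137, an alternative chosen after seeing the data, and all 142 genes were among these. Leaving out 1 library gave 58 to 183 calls, with 58 without WT 50, 61 without WT 56 and 77 without KI 139. The count of 70 at an adjusted p under 0.05 was 151 with DESeq2 and its default filters, 137 with DESeq2 on the same genes, 38 with the second index number, 46 over protein-coding genes and 145 without the 2 vehicle libraries. Leaving out 1 library gave 36 to 105, with 36 without WT 50 and without WT 56, 39 without WT 65, 46 without KI 80, 43 without KI 139 and 105 without KO vehicle 137. With sex as a covariate the counts were 128 and 58. The vehicle count of 227 ranged from 44 without WT vehicle 122 to 1372 without WT vehicle 107, and was 95, 391 and 115 without KI vehicle 102, 116 and 135 and 408 without KO vehicle 137. The interaction count of 0 was 1 with DESeq2 and 0 to 318 on leaving out 1 library, with 318 only without WT vehicle 107. The causes of these shifts were not tested. Other scalings moved the median of all genes by at most 0.0208. No paired analysis was possible because the groups compared share no replicate numbers.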
